A study of Mus musculus with 12 samples.

Results

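A set of 10 genes known as macrophage receptor, adaptor, lysozyme and complement genes was followed through 12 RNA libraries of mouse aortic endothelial cells: Lyz2, Tyrobp, Fcer1g, Csf1r, C1qa, C1qb, C1qc, Mrc1, Itgam and Ptprc. They were taken by symbol, and 10 of 10 were present in the table of 10655 genes. The libraries were made by SMART-seq, a full-length RNA protocol, and a title names 2 diets, out of CD and WD, which stand there without further words. Following how the series text orders its groups, the diet written first was taken for the mother and the other for the offspring, a reading that no title states. The groups were WD offspring of WD mothers (WD_WD), WD offspring of CD mothers (CD_WD), CD offspring of WD mothers (WD_CD) and CD offspring of CD mothers (CD_CD), with 3 libraries each. Offspring in both WD groups had received WD a second time, for 4 weeks, before their cells were taken. The study asks how a mother's high-fat diet bears on atherosclerosis in her offspring. Genotype, strain, sex, age, cell isolation and batch are not stated in the sources used here. Whether replicates came from separate animals is not stated either, so the p-values cover the spread among these libraries alone, and that spread may be technical.

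Macrophages carry surface receptors that have no signalling part of their own and rely on the small adaptors encoded by Tyrobp (DAP12) and Fcer1g (the Fc receptor gamma chain), whose ITAM motifs are phosphorylated by Src-family kinases and then bind Syk. The chains encoded by C1qa, C1qb and C1qc assemble into C1q, the recognition part of the first complement component, which in most tissues is made by macrophages rather than the liver. Csf1r encodes the receptor for the growth factor that keeps macrophages alive, Mrc1 the mannose receptor, Itgam the alpha chain of complement receptor 3, Ptprc the phosphatase CD45 of all white blood cells, and Lyz2 the lysozyme of macrophages and neutrophils. In the wall of a diseased artery, macrophages take up lipid and become foam cells.

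Promoter sequences from RefSeq (GRCm38.p6) were at hand for 7 of the 10 genes: Lyz2, Fcer1g, C1qb, C1qc, Mrc1, Itgam and Ptprc. The box AGGAAGT, a form of the site bound by the myeloid factor PU.1, was searched for on both strands in the 250 bases before each start, and it was present for 5 of these 7 genes against 7.7% of 32851 promoters. The box was chosen after the sequences had been seen, and a match is a description of letters, not a bound site. TGANTCA (AP-1) and TTGCNNAA (C/EBP) matched 0 of the 7, against 6.7% and 9.6% of all promoters, so no match overlapped another motif. The stretches below hold the matches and are shown as a description, since the choice of the box followed from them. The count is of genes, which have 8 promoters here, while the share is of promoters. Each is written 5′ to 3′ on the strand of its gene, with the box, or ACTTCCT where it lies on the opposite strand, in capitals.
Lyz2: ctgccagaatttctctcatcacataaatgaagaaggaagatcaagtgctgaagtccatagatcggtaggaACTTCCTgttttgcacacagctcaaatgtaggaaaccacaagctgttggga
C1qb: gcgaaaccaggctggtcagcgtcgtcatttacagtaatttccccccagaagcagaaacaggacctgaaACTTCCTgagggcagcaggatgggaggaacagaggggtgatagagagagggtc
C1qc: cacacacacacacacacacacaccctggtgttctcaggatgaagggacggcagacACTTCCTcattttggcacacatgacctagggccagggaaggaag
Mrc1: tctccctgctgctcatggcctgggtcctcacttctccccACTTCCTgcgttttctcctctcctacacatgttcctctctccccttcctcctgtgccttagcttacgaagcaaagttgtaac
Ptprc: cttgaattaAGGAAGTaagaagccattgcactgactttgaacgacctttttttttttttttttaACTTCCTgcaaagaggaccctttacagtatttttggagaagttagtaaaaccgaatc
They lie at chr10:117282322-117282442 (minus strand, box 97 bases before the start), chr4:136886201-136886321 (minus, 50 bases), chr4:136893066-136893164 (minus, 192 bases), chr2:14229164-14229284 (plus, 208 bases) and chr1:138175307-138175427 (minus, boxes 110 and 55 bases before the start), all outside annotated exons. The stretch of Ptprc lies within the annotated span of the gene, before the start of a shorter transcript, and the others lie just upstream of their genes. The windows of Fcer1g and Itgam held no such letters. Of the 10 genes, Lyz2 lies on chromosome 10, Tyrobp and Itgam on 7, Fcer1g and Ptprc on 1, Mrc1 on 2 and Csf1r on 18. C1qa, C1qb and C1qc neighbour each other on chromosome 4, within 18.7 kb (chr4:136880129-136898803, GRCm38).

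Reads in the listed genes numbered 4074413 to 12487609 in WD_WD, 7184178 to 18013966 in CD_WD, 10667657 to 17222566 in WD_CD and 16966696 to 19670570 in CD_CD. The labelled cell type was checked first: 10 of 10 endothelial markers were measured and none was at 0 in all libraries of a group, but their summed level was 8363 to 13940 normalised counts in WD_WD and 1676 to 27650 in CD_WD, against 48390 to 68960 in WD_CD and 57520 to 78240 in CD_CD. Other macrophage and monocyte markers, 10 of 10 measured and none at 0 in any library, summed to 50930 to 83740 in WD_WD and 10160 to 46540 in CD_WD, against 1597 to 12340 in WD_CD and 2501 to 4377 in CD_CD. Some libraries stood apart. CD_WD replicate 1 was the lowest of the 6 WD offspring libraries for 9 of the 10 genes and the highest for Ptprc. WD_CD replicate 1 was the highest of the 6 CD offspring libraries for 10 of the 10, while WD_CD replicate 2 was the lowest for 8. In bulk samples such as these, more cells of a type and more RNA per cell cannot be told apart.

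The offspring's diet was compared first, averaged over both mothers' diets. Lyz2, Tyrobp, Fcer1g, C1qb and Ptprc rose in WD offspring (limma on log2 values, Benjamini-Hochberg adjusted over all genes), 0 of the 10 fell, and the other 5 did not pass. Among all genes 20.1% rose and 17.6% fell. The median log2 fold change of the 10 genes was 1.78, against −0.02 over all genes. For Tyrobp and Fcer1g every WD offspring library lay above every CD offspring library, which was the case for 12.6% of all genes, while 9.69% were separated in the other direction. Without CD_WD replicate 1, 8 of the 10 rose, against 20.2% of all genes: C1qa, C1qc and Csf1r passed as well.

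The largest rises were those of both ITAM adaptors. Tyrobp had 88902, 83292 and 54399 normalised counts in WD_WD and 19309, 43427 and 41053 in CD_WD, against 3566, 239.9 and 1919 in WD_CD and 833, 893 and 822 in CD_CD. All 6 WD offspring libraries were above all 6 CD offspring libraries, and the 3 CD_CD libraries were nearly equal. Its log2 fold change was 5.61 ± 0.53 (SE), or 48.9-fold, with an adjusted p of 2.32e-05. Fcer1g had 81247, 82766 and 57943 normalised counts in WD_WD and 14302, 46453 and 47149.8 in CD_WD, against 3149.8, 347 and 1749 in WD_CD and 749, 982 and 812 in CD_CD. The groups again did not overlap, and its log2 fold change of 5.55 ± 0.49 (adjusted p = 1.46e-05) was 46.9-fold. Both genes passed with CD mothers (5.26 ± 0.75 and 5.23 ± 0.69) and with WD mothers (5.97 ± 0.75 and 5.88 ± 0.69).

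Lyz2, whose enzyme breaks bacterial cell walls, was the most abundant of the 10 per kilobase of transcript. Lyz2 had 719905, 588993 and 417244 normalised counts in WD_WD and 34320.1, 288799 and 376491 in CD_WD, against 62372, 4505 and 26266 in WD_CD and 8873, 17575 and 13514 in CD_CD. In WD offspring, 5 of the 6 libraries were above every CD offspring library, and the exception, CD_WD replicate 1, was below WD_CD replicate 1. The rise was 4.22 ± 0.74 on the log2 scale, or 18.7-fold (adjusted p = 0.000907), and it was 4.77 (adjusted p = 2.81e-05) without CD_WD replicate 1. Within WD mothers it passed at 4.85 ± 1.04 (adjusted p = 0.00653), and within CD mothers at 3.60 ± 1.04 (adjusted p = 0.0355). The call within CD mothers was lost when any of 5 libraries was left out (CD_CD replicates 1, 2 and 3, CD_WD replicates 2 and 3, with log2 fold changes of 3.33, 3.82, 3.63, 3.15 and 2.96), and with the replicate block or only the groups compared, at an adjusted p of 0.058 in both. It was also lost under CPM, reads scaled to the total of each library (2.15, adjusted p = 0.128), and in length-adjusted values (3.13, adjusted p = 0.06), both described further on. Lyz1, a near-identical neighbour that counting could confuse with Lyz2, held 0.285 to 5.61 counts per 100 of Lyz2 in WD offspring and 0.00465 to 2.28 in CD offspring.

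The C1q chains were spread widely in WD offspring. C1qa had 20195, 11108 and 6965 normalised counts in WD_WD and 461, 6737 and 10806 in CD_WD, against 5689, 835 and 2512 in WD_CD and 1861, 1612 and 1918 in CD_CD. C1qb had 108395, 56482 and 32171 normalised counts in WD_WD and 2087, 26996 and 56132 in CD_WD, against 13957, 1998 and 4365 in WD_CD and 4523, 3629 and 3733 in CD_CD. C1qc had 38730.4, 25404 and 11906 normalised counts in WD_WD and 882, 11010 and 23302 in CD_WD, against 10362, 1756 and 4222 in WD_CD and 3121, 2616 and 2858 in CD_CD. All 3 chains were high in WD_WD and in CD_WD replicates 2 and 3, while CD_WD replicate 1 was lower than every CD_CD library. C1qb rose by 2.72 ± 0.72 on the log2 scale (6.61-fold, adjusted p = 0.0103). C1qa and C1qc did not pass, at 1.60 ± 0.69 (adjusted p = 0.0852) and 1.75 ± 0.69 (adjusted p = 0.0623). Without CD_WD replicate 1 the 3 chains stood at 2.30, 3.43 and 2.45 and passed, with adjusted p-values of 0.00101, 8.61e-05 and 0.000668. With WD mothers C1qb rose by 3.55 ± 1.02 (adjusted p = 0.0244), a call lost without WD_CD replicate 2 or 3 or WD_WD replicate 1 or 2 (2.90, 3.46, 3.10 and 3.57), under CPM (2.17, adjusted p = 0.136) and in length-adjusted values (2.15, adjusted p = 0.157). C1qc passed without WD_CD replicate 1 as well, at 2.08. The count tests on recovered reads called C1qa (edgeR 1.82, adjusted p = 0.0393) and C1qc (edgeR 2.03, adjusted p = 0.027) on all 12 libraries.

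For Csf1r, the receptor for CSF1 and IL-34, the difference did not exceed the spread. Csf1r had 1241, 1750 and 1053 normalised counts in WD_WD and 231, 1961 and 1948 in CD_WD, against 1688, 376 and 1148 in WD_CD and 501, 642 and 660.2 in CD_CD. The lowest value of all 12 was that of CD_WD replicate 1, and 2 of the CD_WD libraries were the highest, so that the groups overlapped throughout. The log2 fold change was 0.62 ± 0.52 (adjusted p = 0.373), and 1.13 (adjusted p = 0.0184) without CD_WD replicate 1. Exons of Csf1r overlap those of Hmgxb3 on the opposite strand over 873 bases, and how counting treated strand is not stated in the sources used here.

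Mrc1, an uptake receptor for mannose-bearing ligands that is high in resident macrophages, was the single gene of the 10 with a negative difference. Mrc1 had 134, 239.6 and 989.9 normalised counts in WD_WD and 30.4, 297 and 467 in CD_WD, against 1208, 369.8 and 853 in WD_CD and 631, 453 and 308 in CD_CD. The value of CD_WD replicate 1 rested on 12 reads, WD_WD replicate 3 was above 5 of the 6 CD offspring libraries, and the groups overlapped. Its log2 fold change of −1.32 ± 0.67 did not pass (adjusted p = 0.135), and without CD_WD replicate 1 it was −0.72 (adjusted p = 0.27).

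Itgam encodes the chain CD11b, with which phagocytes bind complement-coated particles. Itgam had 208, 185 and 629.6 normalised counts in WD_WD and 83.7, 280.4 and 209 in CD_WD, against 229, 25.5 and 225 in WD_CD and 97.8, 116 and 93.7 in CD_CD. WD_WD replicate 3 was the highest, WD_CD replicate 2 the lowest at 64 reads, and the other libraries of WD and CD offspring overlapped. The difference, 1.06 ± 0.59 on the log2 scale, did not pass (adjusted p = 0.175). Itgam pairs with the beta chain Itgb2, given with the integrins further on, and its exons share 3450 bases with Gm49368 on the same strand, so reads cannot be told apart between these.

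Ptprc encodes CD45, which sets the activity of Src-family kinases in white blood cells of every kind. Ptprc had 1081, 2220.1 and 1746 normalised counts in WD_WD and 3293, 1437 and 825 in CD_WD, against 1331, 621 and 216 in WD_CD and 576, 141 and 599 in CD_CD. CD_WD replicate 1, the lowest of the WD offspring libraries for the other 9 genes, was the highest of all 12 for this one. All WD offspring libraries lay above the CD_CD libraries, and of the WD_CD libraries replicate 1 lay within the range of WD offspring and replicates 2 and 3 below it. Ptprc rose by 1.81 ± 0.51 on the log2 scale (3.51-fold, adjusted p = 0.0148), or 1.54 (adjusted p = 0.0259) without CD_WD replicate 1. Within CD mothers it was 2.10 ± 0.72 (adjusted p = 0.0691) and within WD mothers 1.52 ± 0.72 (adjusted p = 0.141), neither of which passed, while in length-adjusted values both did (2.82, adjusted p = 0.0318, and 2.28, adjusted p = 0.0482). B cell markers, 4 of 4 measured, summed to 335300 normalised counts in 1 library of CD_WD, and this moved together with Ptprc there; its part was not tested.

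**Figure D1:**
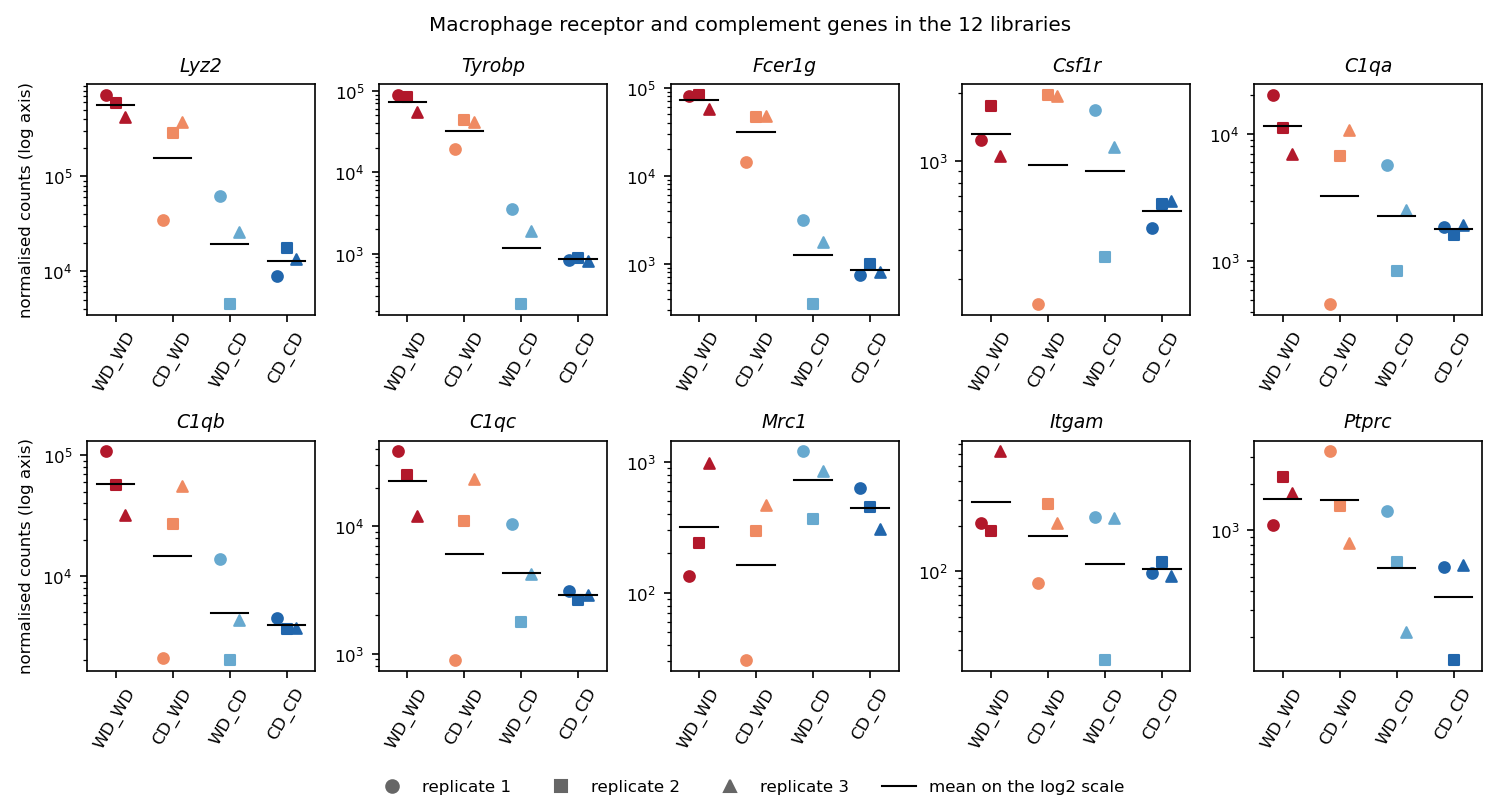
Normalised counts (log axis) of the 10 genes in the 12 libraries, by group; symbols mark the replicate number and bars the mean on the log2 scale. Tyrobp and Fcer1g separate WD from CD offspring in every library, and CD_WD replicate 1 is the lowest WD offspring library for 9 of the 10 genes.

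By mother's diet, 3 of the 10 genes rose with CD mothers (Tyrobp, Fcer1g and Lyz2), against 9.46% of all genes, and 4 rose with WD mothers (the same genes and C1qb), against 14.2%; 0 of the 10 fell, against 5.55% of all genes with CD mothers and 10.2% with WD mothers. Libraries did not overlap for 4 of the 10 with CD mothers and 6 of the 10 with WD mothers, against 21.9% of all genes in either case; 0 of the 10 were separated downwards, against 21.6% and 19.4%. Without CD_WD replicate 1, 7 of the 10 rose with CD mothers, against 8.51% of all genes. Whether the response differed between the mothers' diets was tested as an interaction, given with the mothers' diets further on.

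**Figure D2:**
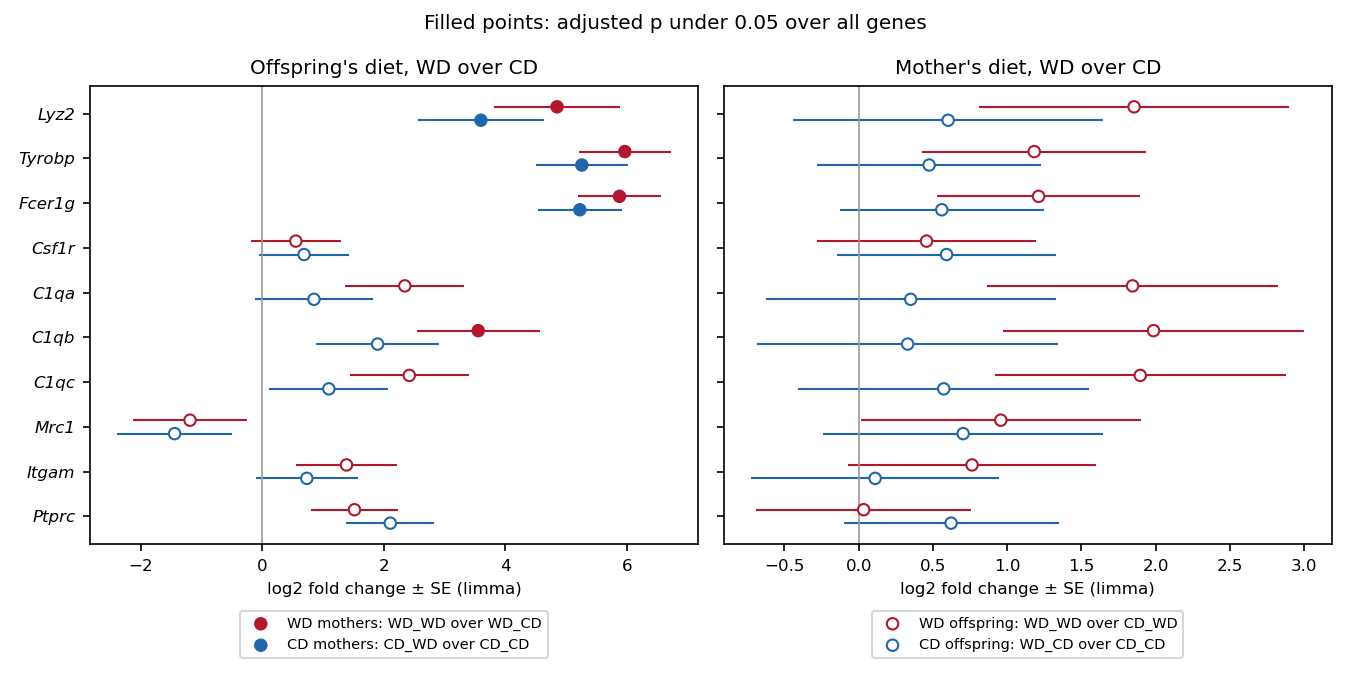
log2 fold changes (limma, bars are SE) of each gene for the offspring's diet, left, and the mother's diet, right, within each level of the other diet; filled points passed an adjusted p of 0.05. Filled points are 4 with WD mothers and 3 with CD mothers on the left, and 0 on the right.

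Ratios of these genes within a library do not depend on how the library was scaled, so they were compared as well. For 8 pairs the ratio was compared for both diets, 16 tests in all, and 5 passed, each for the offspring's diet (two-sided exact permutation test over 400 arrangements within the other diet; p = 0.005, the smallest possible, adjusted p = 0.016). Per 100 counts of C1qa, C1qb had 537, 508 and 462 in WD_WD and 452, 401 and 519 in CD_WD, against 245, 239 and 174 in WD_CD and 243, 225 and 195 in CD_CD. Every WD offspring library was above every CD offspring library, CD_WD replicate 1 included, so that the log2 ratio was 1.13 higher, or 2.19-fold. For C1qc per 100 C1qa the range was 163 to 229 in WD offspring and 149 to 210.4 in CD offspring, a log2 difference of 0.16 that did not pass (exact permutation p = 0.13, adjusted p = 0.297). Tyrobp per 100 Fcer1g ranged over 87.1 to 135 in WD offspring and 69.1 to 113 in CD offspring, a log2 difference of 0.06 (exact permutation p = 0.68, adjusted p = 0.741).

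Per Lyz2, each other macrophage gene that was set against it was lower in WD offspring. These ratios all carry the rise of Lyz2 (4.22 on the log2 scale), so they are not independent of it or of each other. Tyrobp (5.61) and Fcer1g (5.55), which rose more than Lyz2, were not set against it. C1qa per 100 Lyz2 had a lowest, median and highest value of 1.34, 2.11, 2.87 in WD offspring and 9.12, 11.9, 21.0 in CD offspring, a log2 difference of −2.63. Csf1r had 0.172, 0.297 and 0.252 per 100 Lyz2 in WD_WD and 0.672, 0.679 and 0.517 in CD_WD, against 2.71, 8.34 and 4.37 in WD_CD and 5.65, 3.65 and 4.88 in CD_CD. No WD offspring library reached the range of CD offspring, and the log2 difference was −3.61, a 12.2-fold lower ratio. Within WD mothers it was −4.30 and within CD mothers −2.91. Mrc1 per 100 Lyz2 ran over 0.0186, 0.0958, 0.237 in WD offspring and 1.94, 2.91, 8.21 in CD offspring, a log2 difference of −5.54 (46.6-fold lower). Itgam per 100 Lyz2 ran over 0.0289, 0.0763, 0.244 in WD offspring and 0.367, 0.677, 1.10 in CD offspring, a log2 difference of −3.17. In all 4 of these ratios the libraries of WD and CD offspring did not overlap. The median log2 fold change over all genes was −0.02, so most genes set against Lyz2 would have a lower ratio in WD offspring. The share of them that would separate in this way was not computed, so these 4 ratios add little beyond the rise of Lyz2. Ptprc per 100 Csf1r spanned 42.4 to 1427 in WD offspring, the top value being CD_WD replicate 1, and 18.8 to 165 in CD offspring, and its log2 difference of 1.19 did not pass (exact permutation p = 0.255, adjusted p = 0.408).

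**Figure D3:**
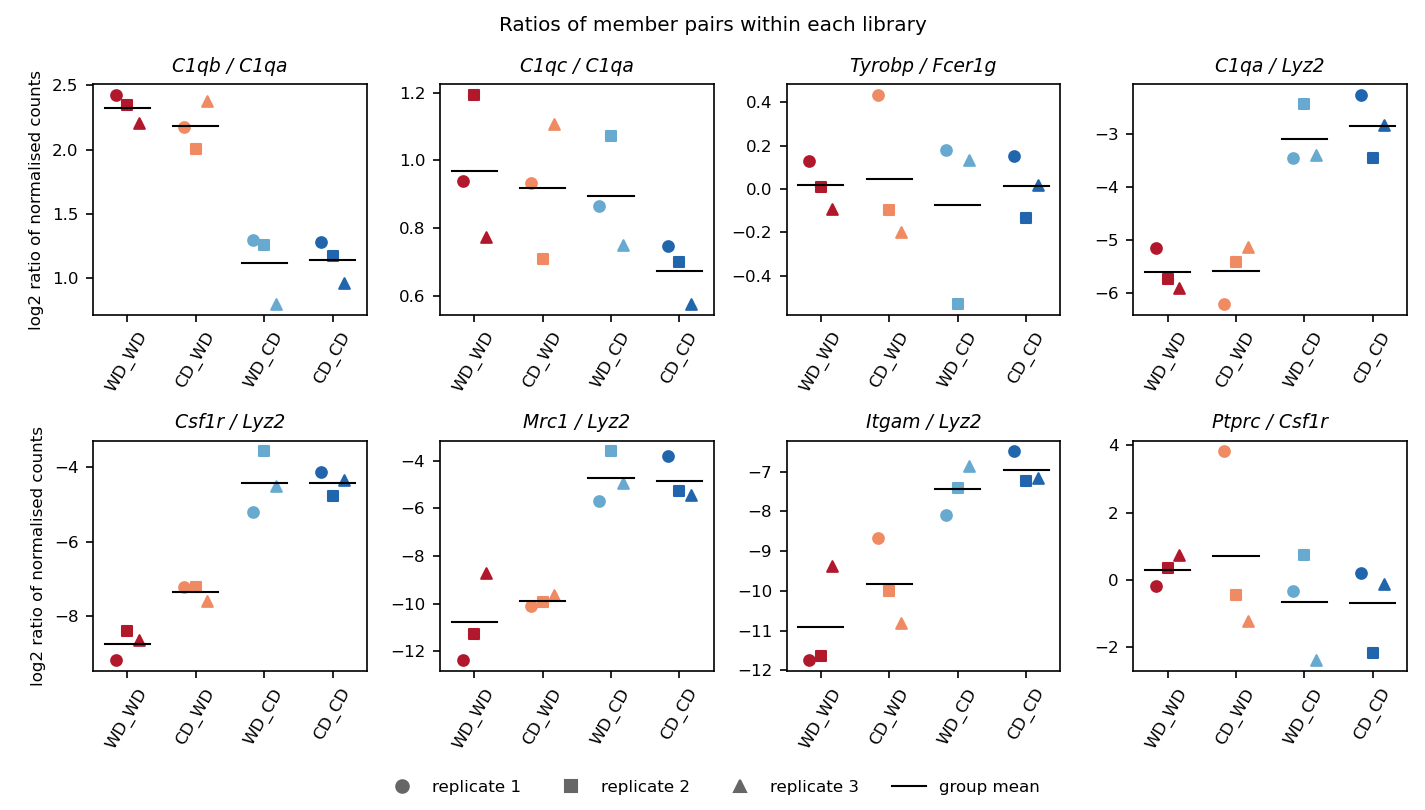
log2 ratio of normalised counts for 8 pairs of genes in each library, by group; symbols mark the replicate number and bars the group mean. The ratios C1qb to C1qa and C1qa, Csf1r, Mrc1 and Itgam to Lyz2 separate WD from CD offspring without overlap; the log2 difference of Csf1r to Lyz2 is −3.61.

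Transcript length moved with the same comparison. Among 10292 genes with an annotated length (96.6%), the median log2 fold change for the offspring's diet was 1.48 in the shortest of 10 bins (70 to 1241 bases) and −0.91 in the longest (6654 bases and more), falling at every step between. Tyrobp (564 bases), Fcer1g (683), C1qa (1040), C1qb (1088) and C1qc (1203) lie in the shortest bin, Lyz2 (1316) in the next with a median of 0.58, Itgam (4682) and Csf1r (4701) in one with −0.56, and Ptprc (5074) and Mrc1 (5374) in one with −0.72. C1qa, at 1.60, and C1qc, at 1.75, stood close to the median of their bin, whereas Tyrobp, Fcer1g, Lyz2 and Ptprc stood well above theirs. After each bin was centred to 1 level in every library, an adjustment added after the data had been seen, Tyrobp (log2 fold change 4.34, adjusted p = 0.00014), Fcer1g (4.27, 0.000105), Lyz2 (3.72, 0.00184) and Ptprc (2.55, 0.0032) passed, 4 of the 10 against 18.1% of all genes higher and 13.3% lower. C1qb (1.45, adjusted p = 0.146), C1qa (0.32, 0.756), C1qc (0.48, 0.634), Itgam (1.64, 0.0504), Csf1r (1.20, 0.103) and Mrc1 (−0.58, 0.523) did not. The 4 called ratios to Lyz2 passed in the adjusted values too, at −3.40, −2.52, −4.29 and −2.08 for C1qa, Csf1r, Mrc1 and Itgam. C1qb and C1qa share a bin, so the adjustment cancels in their ratio and tests nothing there.

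**Figure D4:**
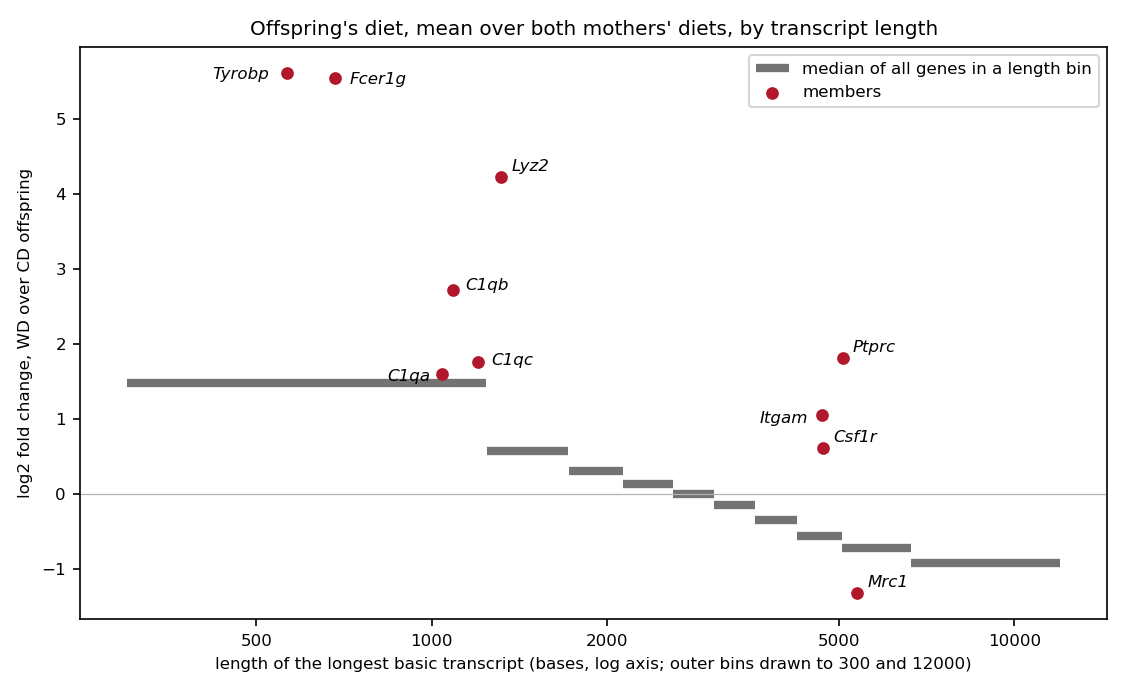
log2 fold change of WD over CD offspring (limma, mean over both mothers' diets) against transcript length in bases (log axis); grey bars are the median of all genes in 10 length bins and red points the 10 genes. The bars step down with length, and Tyrobp and Fcer1g stand furthest above theirs.

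The scaling of the libraries set the level from which changes were read. Normalised counts summed to 16132464 to 20466278 per library in WD_WD and 15031921 to 28557831 in CD_WD. In WD_CD they summed to 6862363 to 7164565, and in CD_CD to 6824095 to 7024493. All normalised counts and marker sums set between the diets are on that scale. Under CPM the median of all genes moved to −1.40 on the log2 scale, and Tyrobp (4.20), Fcer1g (4.14) and Lyz2 (2.81) still rose, 3 of the 10 against 6.05% of all genes. There Mrc1 fell by 2.72 (adjusted p = 0.00926), 1 of the 10 against 56.9% of all genes, C1qb (1.31, adjusted p = 0.173) and Ptprc (0.40, 0.501) lost their calls, and Csf1r (−0.79) and Itgam (−0.34) turned negative without passing. Relative to that median the 10 genes stood at 5.60 for Tyrobp, 5.54 for Fcer1g, 4.21 for Lyz2, 2.71 for C1qb, 1.80 for Ptprc, 1.74 for C1qc, 1.58 for C1qa, 1.06 for Itgam, 0.60 for Csf1r and −1.32 for Mrc1.

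The mother's diet was compared within each diet of the offspring, which is the memory of the mother's diet that the study addresses. In WD offspring all 10 genes had higher means on the log2 scale in WD_WD than in CD_WD, but none passed: 0 of the 10, and 0.0% of all genes (628 genes had an unadjusted p below 0.05, and after adjustment edgeR called 0 and DESeq2 14, none of the 10). The differences were largest for the C1q chains, at 1.99 ± 1.02 for C1qb, 1.90 ± 0.98 for C1qc and 1.85 ± 0.98 for C1qa, and for Lyz2, at 1.86 ± 1.04, with adjusted p-values of 0.858 to 0.863. Tyrobp (1.18 ± 0.75), Fcer1g (1.21 ± 0.69) and Lyz2 had no overlap between WD_WD and CD_WD libraries, 3 of the 10 genes against 5.86% of all genes, and 0 were separated downwards, against 4.16%. Without CD_WD replicate 1 the C1q chains stood at 0.44 to 0.58, Lyz2 at 0.77, Tyrobp at 0.81 and Fcer1g at 0.64, and Csf1r (−0.57) and Mrc1 (−0.23) turned negative.

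In CD offspring the 10 genes stood 0.11 to 0.70 higher on the log2 scale in WD_CD than in CD_CD, again with 0 of the 10 called, 0.0% of all genes (276 had an unadjusted p below 0.05, and edgeR called 0 and DESeq2 9, none of the 10) and adjusted p-values of 1.0. Libraries were separated upwards for 0 of the 10, against 4.0% of all genes, and downwards for 0, against 4.87%. The 3 WD_CD libraries were far apart: Tyrobp differed 14.9-fold and Lyz2 13.8-fold between the highest and the lowest of them, against 1.09-fold and 1.98-fold among CD_CD libraries. Without WD_CD replicate 1, 7 of the 10 stood below CD_CD, among them Lyz2 (−0.24), Tyrobp (−0.32) and C1qb (−0.42). The interaction, the mother's effect in WD offspring minus that in CD offspring, ran over −0.59 for Ptprc to 1.66 for C1qb, and 0 of the 10 passed, and 0.0% of all genes (342 had an unadjusted p below 0.05, and edgeR called 0 and DESeq2 10, none of the 10). The authors' deposited table gives log2 fold changes of 0.64 to 1.22 for these genes in CD offspring, all with an adjusted p of 1.0, and of −0.14 to 1.30 in WD offspring, with adjusted p-values of 0.677 to 0.995.

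Among the ratios, 0 of 8 passed for the mother's diet. The smallest p was that of Csf1r to Lyz2, whose log2 ratio differed by −0.70 between WD and CD mothers (exact permutation p = 0.08, adjusted p = 0.213). The difference was −1.40 within WD offspring, where the highest WD_WD library had 0.297 Csf1r per 100 Lyz2 and the lowest CD_WD library 0.517, and −0.01 within CD offspring.

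Per kilobase of transcript, a scale for setting genes beside each other within a diet, Lyz2 stood first in both diets, with 307213 ± 181382 normalised counts per kb in WD offspring and 16857 ± 16004 in CD offspring (SD, n = 6 each). Short transcripts stood higher in WD offspring (median log2 fold change 1.48 in the shortest bin, −0.91 in the longest), so the orders of the 2 diets are not directly comparable. The level of Itgam is uncertain, as its exons share 3450 bases with Gm49368. In WD offspring Tyrobp (97630.3 ± 47260.3) and Fcer1g (80493 ± 37383) followed, then C1qb (43239 ± 33342), C1qc and C1qa (9018 ± 6296), Ptprc (348 ± 176), Csf1r (290.1 ± 142), Mrc1 (66.9 ± 63.7) and Itgam (56.8 ± 40.4). In CD offspring C1qb (4934 ± 3954) and C1qc (3454 ± 2613) stood above Tyrobp (2445 ± 2129.6), C1qa and Fcer1g (1901 ± 1489.6), and then came Csf1r, Mrc1 (119 ± 63.7), Ptprc (114 ± 83.2) and Itgam (28.0 ± 17.2). The ranges of mean ± SD of neighbours in these orders overlapped except for C1qa and Ptprc, and Csf1r and Mrc1, in WD offspring, and Fcer1g and Csf1r in CD offspring.

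Within the groups, the genes moved together from library to library with 1 exception. Over the 12 libraries centred within their group, which share each library's depth and scaling, the log2 values of the C1q chains had pairwise correlations of 0.992 to 0.996, Tyrobp and Fcer1g of 0.97, and Lyz2 with Csf1r of 0.951. Against the mean of the other 9, Lyz2 had 0.962, Csf1r 0.946, C1qa 0.931, Mrc1 0.667 and Itgam 0.704, while Ptprc had −0.286. The genes outside the 10 whose pattern was most like their mean were Fcgr3 (0.982), an Fc receptor that uses the Fcer1g chain, Tbxas1 (0.975), the thromboxane synthase, AI607873 (0.963), Vdac1 (0.962), a mitochondrial channel, Cd68 (0.95), a macrophage lysosomal protein, Ttyh2 (0.95), Igf1 (0.949) and Ms4a6c (0.949). These are descriptions over 12 libraries. In CD_WD, replicate 1 was the lowest library for 9 of the 10 genes and the highest for Ptprc. Both the shared movement and the value of Ptprc may rest in large part on that library. No correlation was computed without it.

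The partners of these genes were read from lists of the same pathways. Of a list of 23 genes, mostly receptors that pair with DAP12 or the Fc receptor gamma chain, 13 were measured. These also include Hcst, itself an adaptor, and Clec7a, which has a signalling motif of its own. All 13 rose in WD offspring (11 without WD_CD replicate 2), with a median log2 fold change of 5.03. Over all genes the median was −0.02, and 20.1% rose and 17.6% fell. The table held no gene with a mean below 15.8, and of the 13, 6 had a 0 in WD_CD and 3 in CD_CD. Such genes may be in the table only through their level in WD offspring, so the count was partly fixed beforehand. Trem2, a lipid-sensing receptor that signals through DAP12, averaged 10531 ± 2972 normalised counts in WD_WD and 1968 ± 1813 in CD_WD, against 587 ± 733 in WD_CD and 112 ± 159 in CD_CD (SD, n = 3 each; log2 fold change 5.60 ± 1.45, adjusted p = 0.00943). Hcst, the adaptor DAP10, averaged 1814 ± 592 normalised counts in WD_WD and 3372 ± 3878 in CD_WD, against 114 ± 145 in WD_CD and 52.0 ± 13.9 in CD_CD (log2 fold change 5.11 ± 0.65, adjusted p = 0.000112). Clec4n, or dectin-2, which uses the gamma chain, averaged 3095 ± 3297 normalised counts in WD_WD and 1199 ± 942 in CD_WD, against 152 ± 262 in WD_CD and 122 ± 169 in CD_CD (log2 fold change 6.31 ± 1.59, adjusted p = 0.0081). Trem1 was listed at 0 in 3 of 3 WD_CD libraries, and the list's median was 5.03 also with Trem1 at a floor of 3 reads in each of these. Of 7 Fc receptors 5 rose, among them Fcgr4 at 2085 ± 940.4 normalised counts in WD_WD and 778 ± 647 in CD_WD, against 69.3 ± 120 in WD_CD and 23.8 ± 26.2 in CD_CD (log2 fold change 6.77 ± 1.44, adjusted p = 0.00321). Of the 7, 2 had a 0 in WD_CD and 2 in CD_CD, so this count too may have been partly fixed beforehand.

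Downstream of the adaptors, 14 of 15 ITAM kinases and adaptors rose and 0 fell (median 2.47), as did 14 of 18 ITIM receptors and phosphatases, which oppose them (median 3.04). For these lists and those that follow here, 20.1% of all genes rose and 17.6% fell. Genes with a 0 in CD offspring, 2 of the 18 ITIM genes in WD_CD among them, may again be in the table only through WD offspring. Ptpn6, the phosphatase SHP-1, averaged 2792 ± 1027 normalised counts in WD_WD and 4424 ± 4394 in CD_WD, against 451 ± 268 in WD_CD and 259.9 ± 133 in CD_CD (log2 fold change 3.28 ± 0.49, adjusted p = 0.000334). Of 12 CD45 substrates and partners 6 rose and 0 fell (median 2.16), and 19 of 21 pan-leukocyte genes rose (median 3.07), such as Cyba, a subunit of the phagocyte oxidase, at 90197 ± 26442 normalised counts in WD_WD and 68106 ± 35890.1 in CD_WD, against 3912 ± 2185 in WD_CD and 2543 ± 272 in CD_CD (log2 fold change 4.64 ± 0.36, adjusted p = 9.24e-06).

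Among the complement partners of C1q more genes fell than rose. Of 12 measured genes of the classical pathway and C1 partners, 1 rose and 5 fell (median −1.23), against 20.1% and 17.6% of all genes. C1ra, named after its values were seen, and C1s1, the proteases that C1q carries, fell by 2.17 and 1.86 on the log2 scale, and Cd93 averaged 1084 ± 459 normalised counts in WD_WD and 866 ± 569 in CD_WD, against 3827 ± 1009.9 in WD_CD and 3994 ± 688 in CD_CD (log2 fold change −2.19 ± 0.38, adjusted p = 0.000917). Cfp, or properdin, a stabiliser of the alternative pathway made by myeloid cells, was the gene that rose, at 6775 ± 3362 normalised counts in WD_WD and 4991 ± 3492 in CD_WD, against 1541 ± 758 in WD_CD and 857 ± 161 in CD_CD (log2 fold change 2.17 ± 0.44, adjusted p = 0.00237). Under CPM 0 of the 12 rose and 9 fell, against 6.05% and 56.9% of all genes. Without CD_WD replicate 1 the numbers were 1 and 4, with a median of −0.63. Of 9 complement receptors and membrane regulators, 2 rose, Itgb2 and C5ar1, and 1 fell, Cd59a, close to the shares of all genes (20.1% and 17.6%).

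Among integrins and their partners, 5 of 12 rose and 2 fell. For this list and those that follow here, 20.1% of all genes rose and 17.6% fell. Itgb2, the beta chain that Itgam needs at the surface, averaged 5098 ± 1466 normalised counts in WD_WD and 2987 ± 522 in CD_WD, against 778 ± 377 in WD_CD and 318 ± 39.1 in CD_CD (log2 fold change 3.02 ± 0.29, adjusted p = 2.22e-05), and Itgb1 averaged 1248 ± 66.6 normalised counts in WD_WD and 1332 ± 720.3 in CD_WD, against 6052 ± 1120.2 in WD_CD and 5367 ± 1883 in CD_CD (log2 fold change −2.19 ± 0.31, adjusted p = 0.000208). A list of Csf1r ligands, receptors of related growth factors and signalling genes gave 6 rises and 1 fall among 11 measured genes (median 1.16). None of the rises was a ligand of Csf1r. Csf1, the only such ligand measured in the list and named after its values were seen, was at −0.93 without passing. Csf2ra, the alpha chain of the GM-CSF receptor, averaged 2056 ± 860.4 normalised counts in WD_WD and 1581 ± 895 in CD_WD, against 372 ± 333 in WD_CD and 129 ± 57.6 in CD_CD (log2 fold change 3.14 ± 0.49, adjusted p = 0.000415). Of 15 myeloid transcription factors 6 rose and 1 fell (median 1.32), and Spi1, which encodes PU.1, averaged 4435 ± 2102 normalised counts in WD_WD and 3348 ± 956 in CD_WD, against 414 ± 306 in WD_CD and 289.6 ± 102 in CD_CD (log2 fold change 3.55 ± 0.36, adjusted p = 2.95e-05). Under CPM these medians were −0.25 for the list of Csf1r ligands and related receptors, −0.25 for the integrins and 0.05 for the factors, against −1.40 over all genes.

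Of 18 genes of resident tissue macrophages, the company of Mrc1, 3 rose and 5 fell, with a median of −0.58, against 20.1% and 17.6% of all genes rising and falling. Those that rose were the chemokines Ccl8, at 2908 ± 2197 normalised counts in WD_WD and 4198 ± 3809 in CD_WD, against 1463 ± 1224 in WD_CD and 355 ± 174 in CD_CD (log2 fold change 2.48 ± 0.88, adjusted p = 0.041), and Pf4 (1.81, named after its values were seen), and Ninj1, a membrane protein, at 1.32 (adjusted p = 0.0148). Among those that fell, Lyve1, the hyaluronan receptor of resident vascular macrophages and of lymphatic endothelium, averaged 134 ± 109 normalised counts in WD_WD and 369 ± 368 in CD_WD, against 1911 ± 429.9 in WD_CD and 1781 ± 945 in CD_CD (log2 fold change −3.73 ± 0.76, adjusted p = 0.00246). Cd163, the haptoglobin receptor, averaged 62.3 ± 102 normalised counts in WD_WD and 99.8 ± 126 in CD_WD, against 325 ± 147 in WD_CD and 333 ± 271 in CD_CD (log2 fold change −3.38 ± 1.03, adjusted p = 0.0212), and Stab1, shared with endothelium, averaged 919.5 ± 549 normalised counts in WD_WD and 653 ± 597 in CD_WD, against 3361 ± 750.2 in WD_CD and 3119.6 ± 624 in CD_CD (log2 fold change −2.62 ± 0.65, adjusted p = 0.00734). Under CPM 0 of the 18 rose and 9 fell, against 6.05% and 56.9% of all genes. In length-adjusted values 0 rose and 5 fell, against 18.1% and 13.3% of all genes. Without CD_WD replicate 1, 4 rose and 5 fell and the median was −0.01; without WD_CD replicate 2, 1 rose and 5 fell. Of 15 lysozyme and lysosomal genes 11 rose and 0 fell (median 1.64), Ctss at 101889 ± 26857 normalised counts in WD_WD and 43673 ± 24986 in CD_WD, against 6897 ± 6955 in WD_CD and 1989 ± 1516 in CD_CD (log2 fold change 4.69 ± 0.71, adjusted p = 0.000342), and of 15 scavenger and uptake receptors 5 rose and 1 fell (median 0.31), Lgals3, which codes for galectin-3, at 171696 ± 67398 normalised counts in WD_WD and 62027 ± 51289 in CD_WD, against 5614 ± 5453 in WD_CD and 1689 ± 1801 in CD_CD (log2 fold change 5.43 ± 0.89, adjusted p = 0.000612). Without WD_CD replicate 2, 7 of the 15 lysosomal genes rose, and without CD_WD replicate 1 the median of the scavenger receptors was 0.81.

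Markers of other cells moved in the same comparison, in which 20.1% of all genes rose and 17.6% fell. In WD offspring 9 of 10 endothelial and 4 of 4 smooth muscle markers fell, 1 of 3 fibroblast markers fell, and 7 of 10 other macrophage and monocyte markers rose while 1 fell. Of neutrophil markers 4 of 5 rose, of B cell markers 4 of 4, of T and NK cell markers 4 of 5 and of dendritic cell markers 3 of 5. A 0 was present for 2 dendritic cell and 1 B cell marker in WD_CD. In CD_CD it was present for 2 dendritic cell, 1 B cell and 1 neutrophil marker. Such counts may have been partly fixed beforehand. Neutrophil markers summed to 13720 to 172000 normalised counts in WD_WD and 25250 to 193000 in CD_WD, against 151 to 1147 in WD_CD and 188 to 752.5 in CD_CD. B cell markers summed to 4357 to 14310 in WD_WD and 4210.0 to 335300 in CD_WD, against 512 to 2416 in WD_CD and 102 to 3391 in CD_CD. Smooth muscle markers summed to 6525 to 16110 in WD_WD and 672 to 9564 in CD_WD, against 9478 to 40470 in WD_CD and 35650 to 53510 in CD_CD. The part of these cells in the levels of the 10 genes was not tested. Under CPM, where 6.05% of all genes rose and 56.9% fell, the rises and falls were 7 and 0 of 13 for the DAP12 and gamma chain list and 5 and 0 of 15 for the ITAM genes. They were 7 and 1 of 18 for the ITIM genes, 15 and 0 of 21 for the pan-leukocyte genes and 2 and 5 of 15 for the scavenger receptors. For the mother's diet 0 genes were called in every one of the 22 lists, by limma, in WD and in CD offspring.

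**Figure D5:**
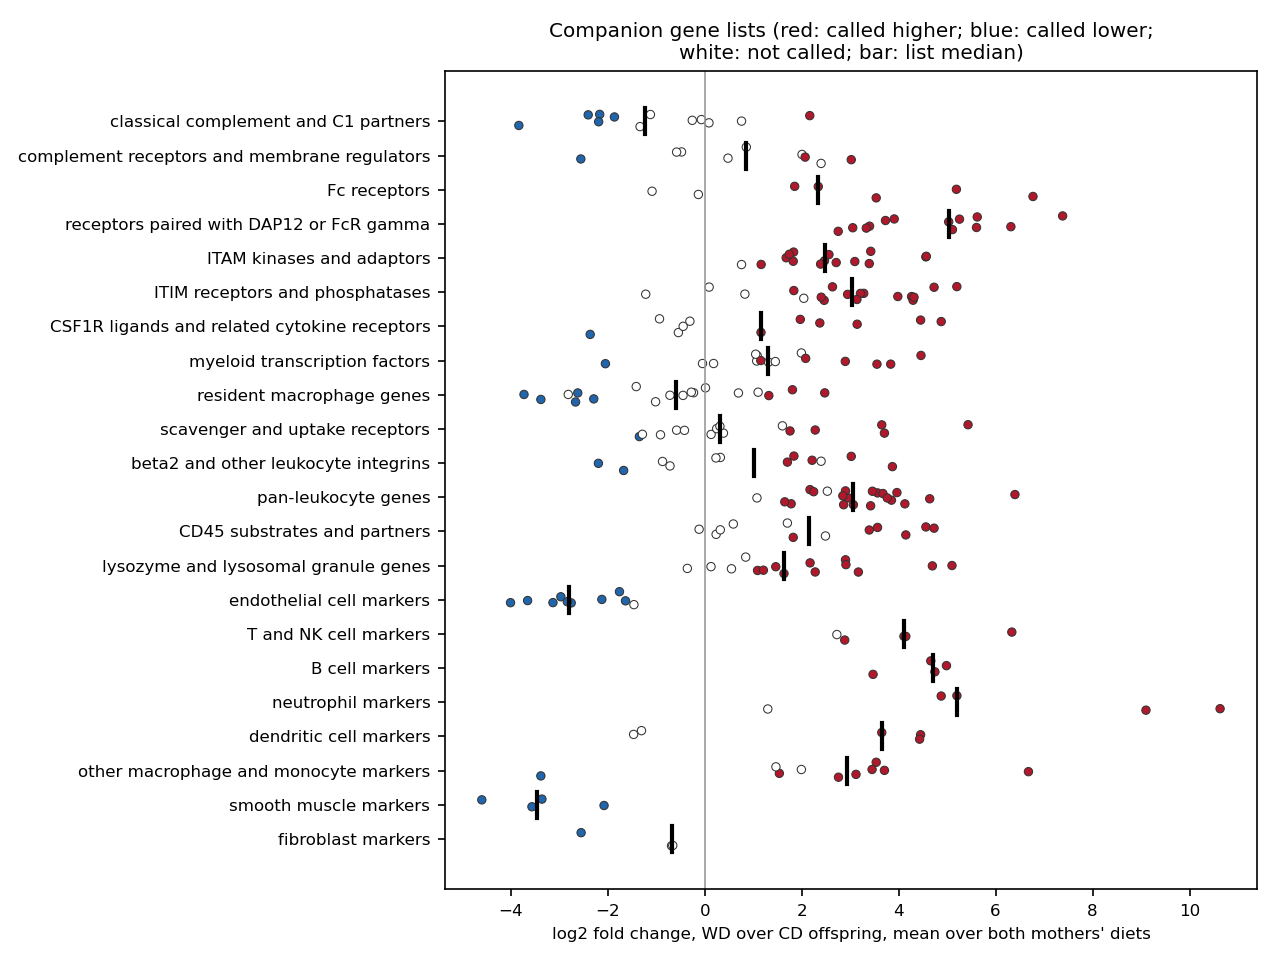
log2 fold change of WD over CD offspring (limma, mean over both mothers' diets) for each measured gene of 22 companion lists; red and blue points passed an adjusted p of 0.05, white points did not, and bars are list medians. All 13 measured genes of the DAP12 and gamma chain list lie right of 0 and all 10 endothelial markers left of it.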

How the data were processed

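RNA of 12 libraries was measured by SMART-seq; other assays of the study were not analysed here. Per the submitters' processing notes, HISAT2 2.2.1 and featureCounts 2.0.1 were used with GRCm38, besides FastQC 0.12.1, SAMtools 1.13, Trim Galore 0.6.10 and DESeq2. The values the authors deposited are normalised counts, a signal per gene scaled by library. For the mother's diet the authors' deposited table also holds, per gene, log2 fold changes with raw and adjusted p-values. Strand handling and the scaling step are not stated in the sources used here. Dividing each column by its smallest step gave whole reads for 100% of 127860 values (tolerance 0.01), hence 4074413 to 19670570 reads per library.

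Because the values were not raw counts, limma 3.58.1 (R 4.3.3) with trend was fitted to log2(value + 1), with a mean per group, 12 libraries and 8 residual degrees of freedom. Fold changes on this scale understate those of low genes. P-values were Benjamini-Hochberg adjusted over 10655 genes and called under 0.05; a minimum mean of 1 removed 0 genes. On the recovered reads edgeR 4.0.16 called 1897 genes higher and 1896 lower in WD offspring, averaged over mothers, and DESeq2 1.42.0 was a further alternative. Ratios used two-sided exact permutation tests. The fit was tested on simulated data with a shared level of spread for all genes and no library standing apart. That test does not cover libraries such as CD_WD replicate 1. Replicate numbers were not used as pairs. The 10 genes and the companion lists were chosen with earlier results of these data known. Named list genes were those with the smallest p in each comparison, up to 4 per offspring and 3 per mother comparison; the 8 genes most like the 10 were ranked by correlation within groups. Some genes that this rule names are not reported here.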

Additional observations from a re-analysis of the deposited data

How the results depend on the processing

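The alternatives were other pseudocounts and filters, TMM scaling, CPM, edgeR, DESeq2, limma without trend, a fit of only the groups compared, the replicate block, each library left out, and length-adjusted values, the last chosen after seeing the data. Of the log2 fold changes of the 10 genes, 1327 values kept direction and side of the threshold, 18 lost the call, 25 gained it and 50 reversed. Many of the 1327 had little or no room to change. The filter removed 0 genes, so dropping it left the fit as it was. Leaving out a library of a group outside a comparison kept its fold changes and altered only the p-values. For the mother's diet and the interaction there was no call to lose. The 12 libraries share replicate numbers only: correlations of same-numbered libraries ran from −0.232 to 0.074 over 18 pairs, and 2 of 12 correlated best with their own number. With the replicate block 1 gene was called for the mother's diet in WD offspring. Genes called under CPM numbered 6705 averaged over mothers, 4388 with CD mothers and 4723 with WD mothers, against 4023, 1599 and 2604 on the deposited scale. DESeq2 called 5 of the 10 genes with CD mothers, and between mothers 14 genes within WD offspring, 9 within CD offspring and 10 for the interaction. Limma without trend called 3 in CD offspring, and length adjustment left 983 with CD mothers. The log2 ratio of Csf1r to Lyz2 was −4.30 with WD and −2.91 with CD mothers, and between mothers −1.40 in WD offspring and −0.0105 in CD offspring.

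Reversed for the offspring's diet were Csf1r under CPM (−0.79, −0.76 and −0.83 averaged, with CD and with WD mothers), Itgam (−0.34 and −0.70 averaged and with CD mothers), and C1qa (−0.59) and C1qc (−0.35) with CD mothers, where length adjustment gave −0.303 and −0.059. For the mother's diet in WD offspring, edgeR and DESeq2 gave −0.0818 and −0.0339 for Csf1r and −0.142 and −0.138 for Ptprc. For the interaction they gave −0.0895 and −0.0406 for Tyrobp, −0.0575 and −0.00475 for Fcer1g, and −0.102 and −0.0336 for Mrc1. The cause was not tested.

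Leaving out 1 library in turn gave 5 to 8 of the 10 genes called averaged over mothers and 2 to 7 with CD mothers. All genes called ran from 698 to 1714 with CD mothers, 1593 to 3335 with WD mothers, and, between mothers, 0 to 10 within WD offspring and 0 to 3 within CD offspring. C1qa with CD mothers ran from −0.0225 to 2.25, and Csf1r with WD mothers from −0.0791 to 1.00. Between mothers, within CD offspring, the ranges were −0.24 to 1.66 for Lyz2, −0.32 to 1.62 for Tyrobp, −0.11 to 1.48 for Fcer1g, −0.31 to 1.08 for C1qa, −0.42 to 0.98 for C1qb, −0.0695 to 1.21 for C1qc, −0.41 to 1.15 for Itgam and −0.0593 to 1.31 for Ptprc. In WD offspring they were −0.57 to 0.97 for Csf1r, −0.23 to 1.72 for Mrc1 and −0.43 to 0.56 for Ptprc. For the interaction they were −0.44 to 1.51 for Tyrobp, −0.27 to 1.32 for Fcer1g, −1.16 to 0.38 for Csf1r, −0.0693 to 2.29 for C1qc, −0.94 to 1.01 for Mrc1, −0.38 to 1.18 for Itgam and −1.28 to 0.0929 for Ptprc. The log2 ratio of Tyrobp to Fcer1g ran from −0.0535 to 0.12 for the offspring's diet and −0.12 to 0.0571 for the mother's. For the mother's diet C1qa to Lyz2 ran from −0.30 to 0.0152, Mrc1 to Lyz2 from −0.92 to 0.0011, and Ptprc to Csf1r from −0.68 to 0.58. Depth limits the lowest genes most: Mrc1 had 12 reads and Itgam 33 in CD_WD replicate 1.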
